A study of Mus musculus with 6 samples.

Results

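Fc receptors are the proteins by which leukocytes bind the constant part of antibodies. Here the mouse genes Fcgr1, Fcgr3, Fcgr4, Fcgr2b, Fcer1g, Fcer2a, Fcgrt and Fcrla were followed, each through the array probe sets whose annotation names that gene and no other. Of these 8 genes, 7 were measured, each by 1 probe set, among 19938 genes measured in all. Fcgrt, which encodes the neonatal Fc receptor FcRn, is named by no probe set in the annotation used and was not analysed here. Starry-sky tumor-associated macrophages (SS-TAMs) were cut by laser from subcutaneous xenografts of the human Burkitt's lymphoma line BL2. The hosts were female BALB/c SCID mice of 6 to 12 weeks, without mature T and B cells, and the xenografts measured 1.44 cm2. Germinal center macrophages (GCMs) were cut in the same way from female BALB/c CSF1R-EGFP transgenic mice of 6 to 12 weeks that had received 2 doses of sheep red blood cells and that keep their lymphocytes. The tissue label and the protocol name the spleen as their origin, and the source label names lymph nodes. SS-TAMs were recognized by CD68 staining, so Cd68 is no finding here, and neither is Csf1r, whose promoter drives the reporter of the GCM hosts. Each mouse gave 1000 captured cells and 1 Affymetrix Mouse Gene 1.0 array, with 3 SS-TAM and 3 GCM mice. In such bulk samples, fewer cells of a type and less RNA per cell cannot be told apart.

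Activating Fc gamma receptors (FcγRI, FcγRIII and FcγRIV, encoded by Fcgr1, Fcgr3 and Fcgr4) bind IgG on opsonized particles and immune complexes and drive phagocytosis. In mice they depend for surface expression and signaling on the common gamma chain, encoded by Fcer1g, whose ITAM (immunoreceptor tyrosine-based activation motif) recruits the kinase Syk. The inhibitory receptor FcγRIIb (Fcgr2b) carries an ITIM (the inhibitory counterpart of that motif) and recruits the lipid phosphatase SHIP1, so that the balance of the activating and inhibitory receptors sets the threshold of a macrophage. Fcer2a encodes CD23, the low-affinity IgE receptor of B cells and follicular dendritic cells, and Fcrla an Fc receptor-like protein held inside B cells.

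All 3 activating receptor genes and Fcer1g were higher in SS-TAMs than in GCMs, whereas no Fc receptor gene was called lower. A gene was called at an adjusted p under 0.05 from limma, with Benjamini-Hochberg adjustment over all 19938 genes. Of the 7 measured genes, 4 were called higher, against 5.16% of all genes, and 0 were called lower, against 4.74% of all genes. In either direction 9.9% of all genes were called. At an unadjusted p under 0.05, limma gave 5 genes higher and 0 lower. The share of all genes at this looser threshold was not counted, and the percentages above do not apply to it. The median log2 fold change, SS-TAM minus GCM, was 1.21 for the 7 genes and 0.041 for all genes. For 18 core macrophage markers, described below, it was 1.22, with 11 called higher. Without Cd68 and Csf1r it was 1.19, with 9 of 16 called higher. A median of this size was thus not particular to the Fc receptor genes. The arrays of the groups did not overlap for 5 of the 7 genes. The share of all genes without overlap was not counted, so this is a description only. With 3 arrays per group the smallest two-sided exact permutation p is 0.1, and each of those 5 genes reached it.

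**Figure D1:**
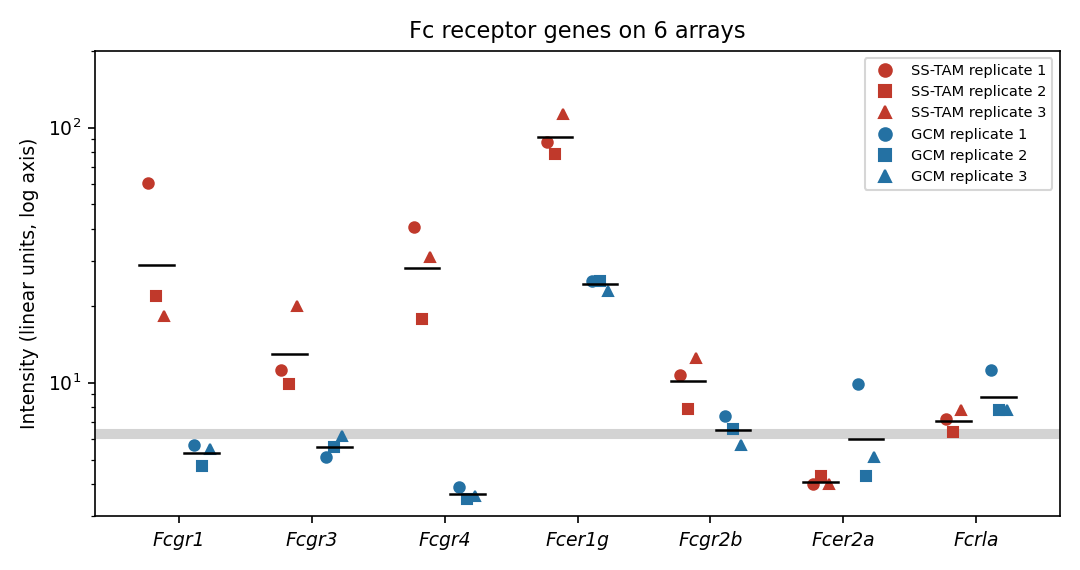
Intensity of 7 Fc receptor genes on a log axis, 1 point per array (1 mouse each), SS-TAMs in red and GCMs in blue, with symbols for the replicates, bars for the geometric means and a gray band for the median intensities of the 6 arrays (6.1 to 6.5). The SS-TAM points of Fcgr1, Fcgr3, Fcgr4, Fcer1g and Fcgr2b lie above all GCM points of the same gene, whereas those of Fcer2a and Fcrla meet or lie below them.

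The start regions of these genes were read from the RefSeq promoter table (build GRCm38.p6), which holds all 8 genes in 11 windows of 250 bases before to 50 after an annotated transcript start. They were searched on both strands for GAGGAA, the core letters recognized by the myeloid and B cell factor PU.1, and for TTCNNNGAA, the letters of the gamma-activated sites bound by STAT dimers. The windows of Fcgr1, Fcgr3, Fcgr4 and Fcrla hold GAGGAA. Counted by window, this is 5 of 11, against 28.3% of the 32851 windows in the table. The windows are not independent, since both windows of Fcgr3 overlap and hold the same match, while Fcer2a has 3 windows. TTCNNNGAA lies in 1 of the 11 windows, that of Fcgr1, and in 8.3% of all windows. The windows of Fcgr2b, Fcer1g, Fcer2a and Fcgrt hold neither, which says only that these letters are not in those windows. The 4 stretches with a match are shown to set the activating receptor genes beside Fcrla, which was not higher in SS-TAMs. Each runs 5′ to 3′ on the strand of the gene, 120 bases before to 50 after the start, with the matches in capitals (TTCCTC is GAGGAA read on the other strand), and a match is a description and not a site shown to be bound.
Fcgr1, chr3:96293920-96294089, minus strand: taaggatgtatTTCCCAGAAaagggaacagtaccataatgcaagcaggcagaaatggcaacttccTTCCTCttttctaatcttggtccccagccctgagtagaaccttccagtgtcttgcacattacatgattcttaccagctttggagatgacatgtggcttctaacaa
Fcgr3, chr1:171059354-171059523, minus strand: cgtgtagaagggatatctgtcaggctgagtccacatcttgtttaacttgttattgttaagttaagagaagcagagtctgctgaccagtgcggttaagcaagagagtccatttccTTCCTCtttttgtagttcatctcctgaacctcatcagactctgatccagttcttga
Fcgr4, chr1:171018806-171018975, plus strand: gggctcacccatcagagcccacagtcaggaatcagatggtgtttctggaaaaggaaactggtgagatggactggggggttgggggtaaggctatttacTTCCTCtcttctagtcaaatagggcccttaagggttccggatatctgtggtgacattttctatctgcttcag
Fcrla, chr1:170927534-170927703, minus strand: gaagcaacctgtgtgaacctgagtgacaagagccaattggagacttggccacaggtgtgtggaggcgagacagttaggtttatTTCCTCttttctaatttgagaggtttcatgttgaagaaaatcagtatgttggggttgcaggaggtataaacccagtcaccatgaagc
In all 4 stretches GAGGAA reads on the strand opposite to the gene, at -55 in Fcgr1, -6 in Fcgr3, -22 in Fcgr4 and -37 in Fcrla, counted from the transcript start to the first base of the match. A second annotated window of Fcgr3 holds the match at -15. TTCNNNGAA of Fcgr1 begins at -109. Fcgr2b, Fcgr4 and Fcgr3 are neighboring protein-coding genes on chromosome 1, which also holds Fcrla and Fcer1g, while Fcgr1 is on chromosome 3, Fcgrt on 7 and Fcer2a on 8. Among the neighboring Fcgr2b, Fcgr4 and Fcgr3, only Fcgr4 and Fcgr3 were called.

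Fcgr4, which encodes the receptor of intermediate affinity for IgG2a and IgG2b, was among the called genes. Its intensity was 40.7, 17.7 and 31.2 on SS-TAM arrays 1, 2 and 3, against 3.9, 3.5 and 3.6 on GCM arrays 1, 2 and 3. The lowest SS-TAM array stood well above the highest GCM array, and all 3 GCM values lay below the median intensity of their arrays. Intensity averaged 29.9 ± 11.6 in SS-TAMs, against 3.67 ± 0.208 in GCMs (mean ± SD, n = 3 each), a log2 fold change of 2.95 (SE 0.30; 7.70-fold; limma adjusted p = 0.0044). No detection calls were used, so a fold over a level near or below the array median can be understated. This holds here and for Fcgr1 and Fcgr3 below. Such a fold is no lower bound, because scaling to core macrophage markers, described below, made these folds smaller. Fcgr4 kept its call without any 1 array, with adjusted p up to 0.032.

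Fcgr1 encodes the high-affinity receptor for IgG2a, the only mouse Fc gamma receptor that binds monomeric IgG strongly. It read 60.9, 21.9 and 18.3 on SS-TAM arrays 1, 2 and 3, against 5.7, 4.7 and 5.5 on GCM arrays 1, 2 and 3. The SS-TAM arrays were spread widely, with a coefficient of variation of 70.1% and array 1 far above the others, yet none overlapped the GCM arrays, all of which were below their array medians. Intensity averaged 33.7 ± 23.6 in SS-TAMs, against 5.30 ± 0.529 in GCMs (mean ± SD, n = 3 each), with a log2 fold change of 2.46 (SE 0.45; 5.49-fold; limma adjusted p = 0.027). Without SS-TAM array 1 the log2 fold change was 1.92 (adjusted p = 0.010). The call was lost without SS-TAM array 2 (adjusted p = 0.061) and without GCM array 1, 2 or 3 (adjusted p = 0.089, 0.11 and 0.10), while the log2 fold change stayed at 2.37 or above in these 4 fits. The standard errors of Fcgr4 and Fcgr1 overlap, so the order of their changes is not determined.

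Fcgr3 encodes the low-affinity activating receptor for IgG complexes. Its intensity was 11.2, 9.9 and 19.9 on SS-TAM arrays 1, 2 and 3, against 5.1, 5.6 and 6.2 on GCM arrays 1, 2 and 3. SS-TAM array 3 was the highest, and the lowest SS-TAM array still exceeded every GCM array. Intensity averaged 13.7 ± 5.44 in SS-TAMs, against 5.63 ± 0.551 in GCMs (mean ± SD, n = 3 each), and the log2 fold change was 1.21 (SE 0.27; 2.32-fold; limma adjusted p = 0.045). This call was the closest to the threshold among the 4. It was lost without SS-TAM array 1 or 2 (adjusted p = 0.081 and 0.055) and without GCM array 1, 2 or 3 (adjusted p = 0.15, 0.15 and 0.12), and the log2 fold change was between 0.91 and 1.41 over all 6 such fits. Fcgr3 and Fcgr2b have closely similar extracellular parts, and whether their probe sets tell them apart was not tested.

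Fcer1g, the signaling chain that the activating receptors share, was well above the array medians in both groups. It read 87.6, 78.5 and 113.2 on SS-TAM arrays 1, 2 and 3, against 25.1, 25.1 and 22.8 on GCM arrays 1, 2 and 3. All SS-TAM arrays were far above the narrow range of the GCM arrays. Intensity averaged 93.1 ± 18.0 in SS-TAMs, against 24.3 ± 1.33 in GCMs (mean ± SD, n = 3 each), a log2 fold change of 1.92 (SE 0.14; 3.78-fold; limma adjusted p = 0.0017), and the call was kept without any 1 array (adjusted p up to 0.016). Fcer1g had the smallest standard error of the 7 genes.

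Fcgr2b, the inhibitory receptor, differed in the same direction but was not called. Its intensity was 10.7, 7.9 and 12.5 on SS-TAM arrays 1, 2 and 3, against 7.4, 6.6 and 5.7 on GCM arrays 1, 2 and 3. The groups did not overlap, although SS-TAM array 2 came close to GCM array 1. Intensity averaged 10.4 ± 2.32 in SS-TAMs, against 6.57 ± 0.850 in GCMs (mean ± SD, n = 3 each), with a log2 fold change of 0.64 (SE 0.19; 1.56-fold; limma adjusted p = 0.098). Without SS-TAM array 2 the log2 fold change was 0.82 and the gene was called (adjusted p = 0.044).

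The 2 genes of B cell receptors had no call. Fcer2a read 4.0, 4.3 and 4.0 on SS-TAM arrays 1, 2 and 3, against 9.9, 4.3 and 5.1 on GCM arrays 1, 2 and 3. It was below the array median on 5 of 6 arrays, GCM array 1 being the exception, and the groups met at 4.3. Its log2 fold change was -0.55 (SE 0.31; limma adjusted p = 0.31), and -0.19 without GCM array 1 (adjusted p = 0.38). Fcrla read 7.2, 6.4 and 7.8 on SS-TAM arrays 1, 2 and 3, against 11.2, 7.8 and 7.8 on GCM arrays 1, 2 and 3. The groups met at 7.8, and GCM array 1 was again the highest. The log2 fold change of Fcrla was -0.31 (SE 0.17; limma adjusted p = 0.30), and -0.13 without GCM array 1 (adjusted p = 0.53).

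Markers of other cells were read on the same arrays. Among B cell markers (14 measured) limma called 2 lower, Cd79a and Ms4a1, and 1 higher, Pou2f2, with summed intensities of 144.8 to 155.6 in SS-TAMs and 210.5 to 485.8 in GCMs, and 13 of 14 were highest on array 1 among the GCM arrays, Ly6d being tied. Leaving out 1 array gave 0 B cell markers higher and 0 to 3 lower, with 0 lower without SS-TAM array 2, 3 without GCM array 1 and 1 without each of the other arrays. Germinal center B cell markers (6 measured, none called) summed to 44.4 to 49.8 in SS-TAMs and 58.1 to 184.4 in GCMs, and follicular dendritic cell markers (2 of 6 lower) to 44.7 to 48.0 in SS-TAMs and 151.8 to 411.1 in GCMs. Among the GCM arrays, array 1 was the highest for 6 of 6 of the first and 5 of 6 of the second (Madcam1 was tied). It was also the highest for 5 of the 7 Fc receptor genes, namely Fcgr1, Fcgr4, Fcgr2b, Fcer2a and Fcrla. The same held for 10 of 18 core macrophage markers. Without GCM array 1, 1 germinal center B cell marker and 4 follicular dendritic cell markers were called lower. Fcgr2b read 7.4, 6.6 and 5.7 on GCM arrays 1, 2 and 3, near the array medians. B cells and follicular dendritic cells also carry FcγRIIb, and their part in this level was not tested. Core macrophage markers, a list that includes Cd68 and Csf1r, were higher in 11 of 18 cases and lower in 0. Without those 2 genes, 9 of 16 were higher and 0 lower, with sums of 2737 to 3772 in SS-TAMs and 1156 to 1377 in GCMs. Lower in SS-TAMs were 7 of 12 T cell markers (sums of 220.8 to 336.4 in SS-TAMs and 1206 to 1625 in GCMs), 2 of 9 NK cell markers (61.5 to 70.8 in SS-TAMs and 79.2 to 85.5 in GCMs) and 4 of 10 dendritic cell markers (91.5 to 114.3 in SS-TAMs and 157.4 to 239.8 in GCMs). None of these 3 lists had a gene called higher. Leaving out 1 array gave 5 or 6 T cell markers lower, 0 NK cell markers without GCM array 1, 2 or 3 and 1 without SS-TAM array 3, and 0 to 2 dendritic cell markers (0 without SS-TAM array 3 or GCM array 2 or 3, 1 without SS-TAM array 1, 2 without SS-TAM array 2 or GCM array 1). For cells that also carry Fc receptors or the gamma chain, none of 11 neutrophil markers was called (65.2 to 67.2 in SS-TAMs and 61.5 to 65.3 in GCMs), 5 of them below the array median on every array. None of 8 mast cell and basophil markers was called (46.8 to 50.4 in SS-TAMs and 47.0 to 47.9 in GCMs), again 5 of them below the median on every array, nor was any of 10 endothelial markers (60.7 to 66.5 in SS-TAMs and 63.4 to 71.6 in GCMs). The part of these cells in the levels of the Fc receptor genes was not tested.

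The arrays were next scaled to the core macrophage markers, a list that holds none of the 7 genes. This moved the median log2 fold change of all genes to -1.41 and gave all genes nearly 1 shared error, so no call is read from it. Fcgr4, Fcgr1 and Fcer1g remained above 0, at log2 fold changes of 1.49, 1.00 and 0.47. Fcgr3 was then at -0.24 and Fcgr2b at -0.81, both above the shifted median of all genes, whereas Fcrla at -1.76 and Fcer2a at -2.00 were below it. With Cd68 and Csf1r left out of the scaling, which was added after the data were seen, the values were 1.57 for Fcgr4, 1.09 for Fcgr1, 0.55 for Fcer1g, -0.16 for Fcgr3 and -0.73 for Fcgr2b, beside a median of -1.33 for all genes. The direction of Fcgr3 and Fcgr2b between the groups therefore depended on the scaling.

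**Figure D2:**
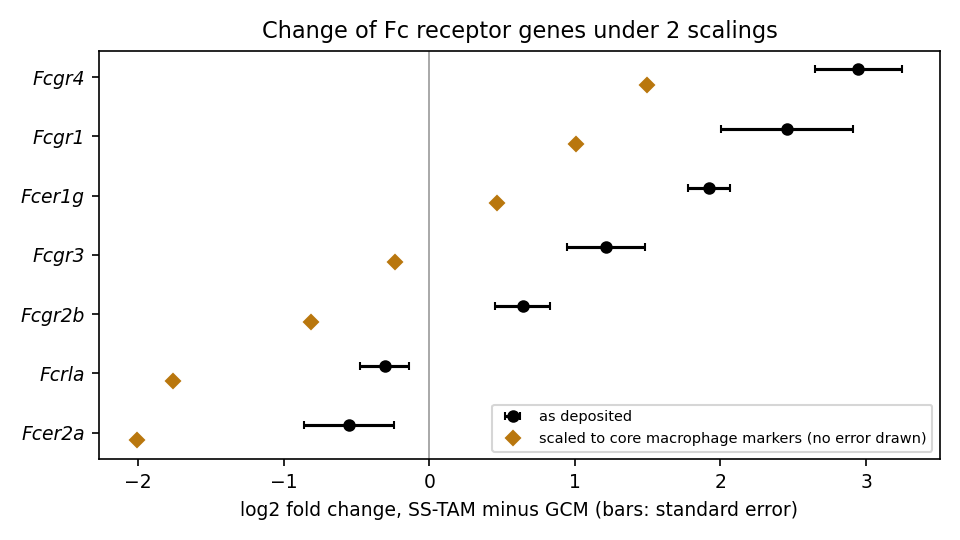
Log2 fold change of each Fc receptor gene, SS-TAM minus GCM, from the deposited values (black circles, bars for the standard error of limma, 3 arrays per group) and after scaling each array to core macrophage markers (ochre diamonds, no error drawn). Fcgr4, Fcgr1 and Fcer1g lie above 0 under both scalings, and Fcgr3 and Fcgr2b lie above 0 only as deposited.

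To compare the activating side with the inhibitory receptor independently of any scaling between arrays, the log2 intensity of Fcgr2b was subtracted from those of Fcgr1, Fcgr3, Fcgr4 and Fcer1g on each array. The level of such a difference has no meaning, since it sets 2 probe sets against each other. Its change between groups shows whether the genes changed unequally on these arrays, in macrophages and other captured cells together. B cells and follicular dendritic cells, which also carry FcγRIIb, had higher marker sums in GCMs as given above. Their part in these differences was not tested. For Fcgr4 the difference was 1.93, 1.16 and 1.32 on SS-TAM arrays 1, 2 and 3, against -0.92, -0.92 and -0.66 on GCM arrays 1, 2 and 3. For Fcgr1 it was 2.51, 1.47 and 0.55 on SS-TAM arrays, against -0.38, -0.49 and -0.05 on GCM arrays. For Fcer1g it was 3.03, 3.31 and 3.18 on SS-TAM arrays, against 1.76, 1.93 and 2.00 on GCM arrays. In these 3 comparisons every SS-TAM array exceeded every GCM array. The groups differed by 2.30 for Fcgr4, 1.82 for Fcgr1 and 1.28 for Fcer1g on the log2 scale. These sizes are those of the deposited intensities. The GCM levels of Fcgr4, Fcgr1 and Fcgr3 and those of Fcgr2b itself lie near or below the array medians. The change of Fcgr2b can thus be understated like the others, so these differences may be too small or too large and are not lower bounds. Each of these 3 differences had a two-sided exact permutation p = 0.1, the smallest that 20 assignments allow. The exact permutation p adjusted over the 4 comparisons was 0.13 for each. Fcgr3 stood at 0.07, 0.33 and 0.67 relative to Fcgr2b on SS-TAM arrays 1, 2 and 3, against -0.54, -0.24 and 0.12 on GCM arrays. Here the groups overlapped, and the difference of 0.57 had an exact permutation p = 0.2, also 0.20 after adjustment. No comparison could pass the 0.05 threshold in this design.

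**Figure D3:**
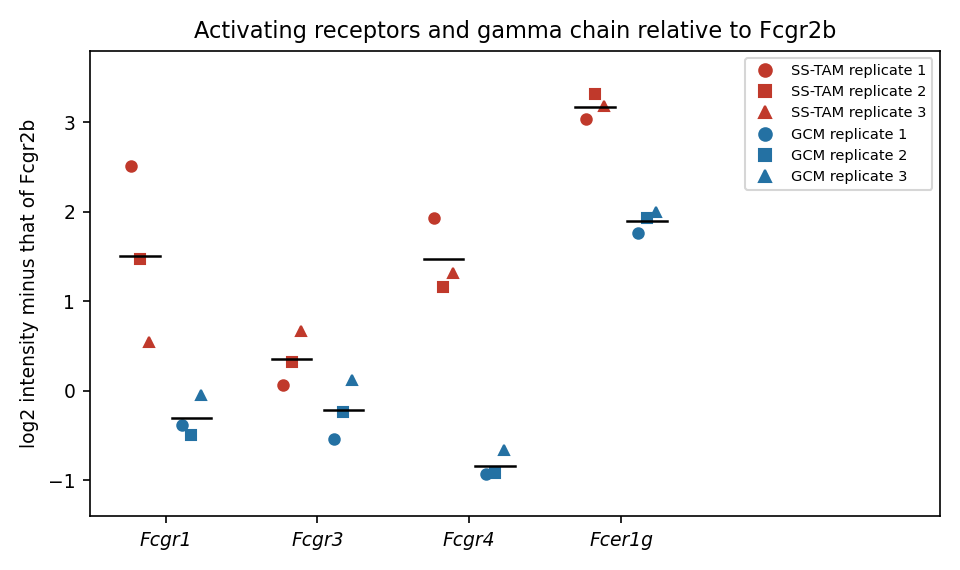
Log2 intensity of Fcgr1, Fcgr3, Fcgr4 and Fcer1g minus that of Fcgr2b on the same array, 1 point per array (1 mouse each), SS-TAMs in red and GCMs in blue, with bars for the group means. The SS-TAM points lie above all GCM points for Fcgr1, Fcgr4 and Fcer1g, and overlap them for Fcgr3.

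The genes did not share 1 profile over the arrays. For each gene, the profile was the log2 intensity minus the mean of the gene over the 6 arrays, and likeness was the root mean square (RMS) difference between 2 profiles. Among the 7 genes, Fcer2a and Fcrla were the closest (RMS 0.26), followed by Fcgr2b with Fcgr3 (0.39) and Fcgr3 with Fcer1g (0.41). Fcgr4 was closer to Fcgr1 (0.48) than to its chromosomal neighbors Fcgr3 (0.95) and Fcgr2b (1.18). These are descriptions over 6 arrays that fall into 2 groups.

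Over the genes with a mean intensity of at least 10, which were 5365 or 5366 depending on whether the gene itself was among them, the profiles most like that of Fcgr1 were those of Ifit2, Rsad2 and Ifit3, which encode interferon-induced antiviral proteins. Ifit2 (RMS 0.10) read 60.5, 26 and 22.1 on SS-TAM arrays 1, 2 and 3, against 7, 5.7 and 6.5 on GCM arrays 1, 2 and 3. Rsad2 (RMS 0.18) read 89.8, 27.5 and 23.9 on SS-TAM arrays, against 8.5, 8.6 and 9 on GCM arrays. Ifit3 (RMS 0.20) read 117, 28.8 and 23.6 on SS-TAM arrays, against 8.8, 6.4 and 7.3 on GCM arrays. All 3 stood out on SS-TAM array 1, as Fcgr1 did. Being chosen for likeness over these arrays, they share such peaks by selection, as do the nearest genes below. The next profile was that of Cd36, a scavenger receptor gene, at a nearly equal RMS of 0.20.

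The profiles nearest to Fcgr4 were those of Pltp, the phospholipid transfer protein gene (RMS 0.13), of Trf, the transferrin gene (0.17), and of Ms4a6d (0.22). Pltp read 405.8, 232.6 and 331.3 on SS-TAM arrays 1, 2 and 3, against 40.9, 36.3 and 39.6 on GCM arrays 1, 2 and 3. As in Fcgr4, array 2 was the lowest of the SS-TAM arrays and the GCM arrays were close together. Fcer1g was most like H2-T24 (RMS 0.14), Galc, which encodes the lysosomal galactosylceramidase (0.15), and Slc15a3, which encodes a lysosomal peptide transporter (0.15). Fcgr3 was most like Mir375 (0.12), the core macrophage marker Mpeg1, which encodes perforin-2 (0.16), and Gab2, a scaffold of the signaling list described below (0.17). Fcgr2b was most like Ttyh3 (0.086), the histone gene H2bc4 (0.093) and Anxa5, the annexin A5 gene (0.093). Fcer2a was most like Smap2 (0.10), S100a11 (0.13) and Zfp318 (0.14). Smap2 read 38.8, 39.5 and 39.2 on SS-TAM arrays 1, 2 and 3, against 94.2, 49.4 and 52.7 on GCM arrays 1, 2 and 3, so that GCM array 1 again stood apart. Fcrla was most like Hnrnpa2b1, which encodes an RNA-binding protein (0.044), Tnfrsf13c, a B cell marker that encodes the receptor for BAFF (0.071), and Fxyd6 (0.075).

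**Figure D4:**
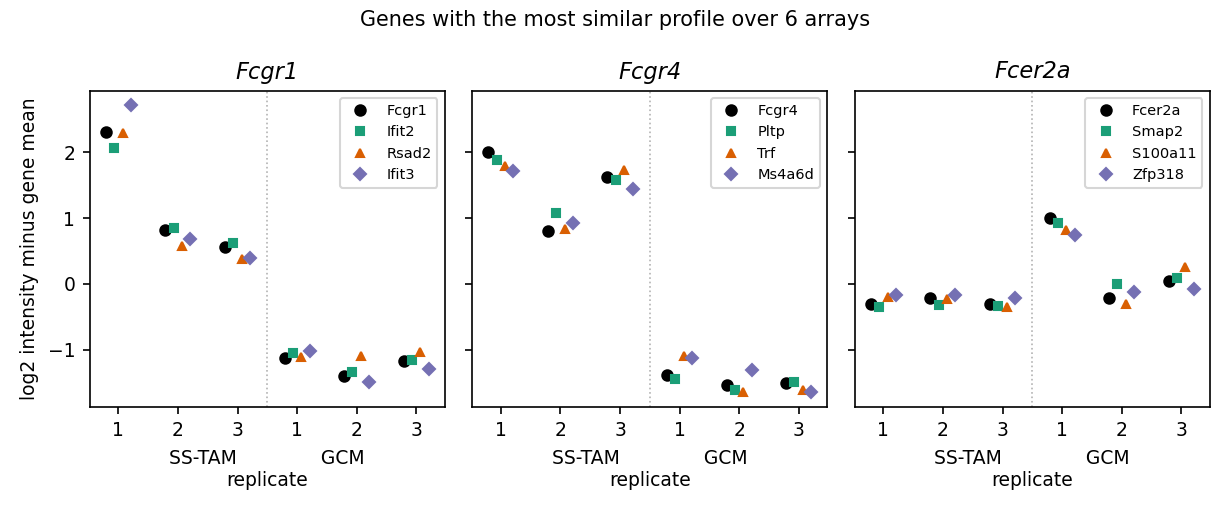
Log2 intensity minus the mean of each gene over the 6 arrays, for Fcgr1, Fcgr4 and Fcer2a (black) and the 3 genes of smallest RMS difference from each, 1 point per array (1 mouse each), SS-TAM replicates left and GCM replicates right. Fcgr1 and its nearest genes are highest on SS-TAM array 1, and Fcgr4 and its nearest genes are lowest on array 2 among the SS-TAM arrays. Fcer2a and its nearest genes are highest on GCM array 1. The nearest genes were chosen on these arrays, so the shared patterns follow from the choice.

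Among the ligands, 4 of 12 immunoglobulin genes were measured (Ighm, Ighg3, Igha and Jchain), of which 1 was lower and 0 were higher, with a median log2 fold change of -0.88. Jchain, which joins IgM and IgA into polymers in plasma cells, read 6.9, 9.5 and 8.9 on SS-TAM arrays 1, 2 and 3, against 171.9, 58.1 and 39.3 on GCM arrays 1, 2 and 3. The groups did not overlap, and the log2 fold change was -3.13 (limma adjusted p = 0.022). The call was lost without SS-TAM array 1, 2 or 3 or GCM array 2 (adjusted p up to 0.081). Ighm, the heavy chain gene of IgM, read 12.9, 18.1 and 15.4 on SS-TAM arrays, against 40, 14.6 and 17.8 on GCM arrays, which overlapped (adjusted p = 0.44). The SCID hosts lack mature B cells, the lymphoma cells of the xenografts are human, and B cell markers were as given above. The part of B cells in these values was not tested.

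Of 11 other immunoglobulin receptor genes, none was called by limma (median log2 fold change -0.054). At an unadjusted p under 0.05 limma gave 0 higher and 2 lower, again without a count over all genes. Without SS-TAM array 1, 1 was called lower. The brightest were Trim21, the cytosolic antibody receptor (21.0 ± 4.97 in SS-TAMs, against 33.6 ± 4.27 in GCMs, mean ± SD, n = 3 each, limma adjusted p = 0.072), and Fcmr, the IgM receptor gene (15.9 ± 0.70 in SS-TAMs, against 35.1 ± 23.4 in GCMs, mean ± SD, n = 3 each, adjusted p = 0.23). Fcer1a and Ms4a2, the other chains of the high-affinity IgE receptor that Fcer1g completes on mast cells, were below the array median on all arrays.

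The gamma chain also serves other receptors, and related adaptors carry ITAMs or similar motifs. Of 11 measured genes of this kind (12 listed), 2 were higher and 1 was lower, with a median log2 fold change of 0.51. Trem2, a lipid and apoptotic cell receptor, averaged 31.2 ± 1.62 in SS-TAMs, against 9.03 ± 1.29 in GCMs (mean ± SD, n = 3 each), a log2 fold change of 1.80 (limma adjusted p = 0.0012), kept its call without any 1 array, and stood at 0.35 after scaling to core macrophage markers. Tyrobp, which encodes DAP12, the ITAM adaptor of Trem2, read 280.2, 284.9 and 403.4 on SS-TAM arrays 1, 2 and 3, against 159.7, 157.4 and 161.8 on GCM arrays 1, 2 and 3. Its log2 fold change was 1.00 (adjusted p = 0.015), and the call was lost without GCM array 1, 2 or 3 (adjusted p up to 0.074). After scaling to core macrophage markers the value for Tyrobp was -0.46, beside a median of -1.41 for all genes. Hcst, which encodes DAP10, an adaptor of T and NK cells, was lower (56.5 ± 8.73 in SS-TAMs, against 125 ± 24.1 in GCMs, mean ± SD, n = 3 each; log2 fold change -1.14, adjusted p = 0.017). Hcst lost its call without SS-TAM array 1 or 3 or GCM array 2 or 3 (adjusted p up to 0.076). T cell and NK cell marker sums were lower in SS-TAMs as given above, and the part of these cells in the value of Hcst was not tested.

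Downstream of the ITAM, 29 of 31 listed signaling genes were measured, of which 3 were higher and 2 lower, with a median log2 fold change of -0.042. Leaving out 1 array gave 0 (without GCM array 2 or 3) to 4 (without SS-TAM array 2) genes higher and 1 to 3 lower. Syk itself averaged 11.6 ± 2.88 in SS-TAMs, against 7.70 ± 2.02 in GCMs (mean ± SD, n = 3 each) and was not called (log2 fold change 0.59, limma adjusted p = 0.20). Sh3bp2, a Syk-binding adaptor (log2 fold change 1.04, adjusted p = 0.028), Grb2, the adaptor that links receptors to Ras (0.96, adjusted p = 0.030), and Vav2, a guanine nucleotide exchange factor (0.46, adjusted p = 0.015), were higher. After scaling to core macrophage markers all 3 turned below 0, with Sh3bp2 at -0.41 and Grb2 at -0.49. Leaving out any 1 array other than SS-TAM array 2 ended the call of Sh3bp2 (adjusted p up to 0.11), that of Grb2 was lost without each array except GCM array 1 (up to 0.12), and that of Vav2 without GCM array 2 or 3 (up to 0.072). Lat, the scaffold of T cell receptor signaling, read 11.1, 11.3 and 12.8 on SS-TAM arrays 1, 2 and 3, against 85.4, 90.7 and 119.2 on GCM arrays 1, 2 and 3, and averaged 11.7 ± 0.929 in SS-TAMs, against 98.4 ± 18.2 in GCMs (mean ± SD, n = 3 each). Its log2 fold change of -3.06 (adjusted p = 0.00069) was called without any 1 array. Lower too were 7 of 12 T cell markers, and the part of T cells in the value of Lat was not tested. Pik3r1, a regulatory subunit of PI3-kinase, was lower by a log2 fold change of -1.06 (adjusted p = 0.016) and lost its call without SS-TAM array 3 or GCM array 2 (adjusted p up to 0.072).

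On the inhibitory side, 1 of 14 signaling genes was higher and 2 were lower, with a median log2 fold change of -0.013. Inpp5d, which encodes SHIP1, averaged 18.0 ± 1.91 in SS-TAMs, against 15.7 ± 3.27 in GCMs (mean ± SD, n = 3 each, limma adjusted p = 0.44), and Ptpn6, which encodes SHP-1, was not called either (log2 fold change -0.16, adjusted p = 0.66). Dok3, an adaptor that recruits SHIP1, was higher (log2 fold change 0.62, adjusted p = 0.029). Its call held only with all arrays or without GCM array 1 (otherwise adjusted p up to 0.11). After scaling to core macrophage markers Dok3 stood at -0.83, beside a median of -1.41 for all genes. Ptpn22, a phosphatase of lymphocytes and myeloid cells (-1.13, adjusted p = 0.0034), and Cblb, a ubiquitin ligase that restrains T cell activation (-0.94, adjusted p = 0.0010), were lower and kept their calls without any 1 array. T cell marker sums were lower in SS-TAMs as well, and their part in these values was not tested.

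Other receptors with ITIMs were mixed. Of 16 such genes, 5 were higher, 0 lower and 11, like Fcgr2b, not called. Their median log2 fold change was 0.47, beside 0.64 for Fcgr2b. Sirpa, the receptor for CD47, read 231.1, 181.4 and 304.6 on SS-TAM arrays 1, 2 and 3, against 75.2, 50.6 and 73.2 on GCM arrays 1, 2 and 3. All SS-TAM arrays were above all GCM arrays, and the log2 fold change was 1.84 (limma adjusted p = 0.0093). Lilrb4a (2.26, adjusted p = 0.0093), the uric acid crystal receptor gene Clec12a (1.99, adjusted p = 0.015), Clec4a2, which encodes DCIR (1.82, adjusted p = 0.0082), and Cd300a, a phosphatidylserine receptor gene (1.60, adjusted p = 0.0037), were also higher on the log2 scale. Clec12a lost its call without GCM array 1, 2 or 3 and Lilrb4a without GCM array 2 or 3 (adjusted p up to 0.073 and 0.052), when 3 of the 16 genes were called without GCM array 2 or 3. After scaling to core macrophage markers all 5 remained above 0, with log2 fold changes of 0.81 for Lilrb4a, 0.53 for Clec12a, 0.39 for Sirpa, 0.37 for Clec4a2 and 0.15 for Cd300a. Whether the change of Fcgr2b differed from theirs was not tested.

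**Figure D5:**
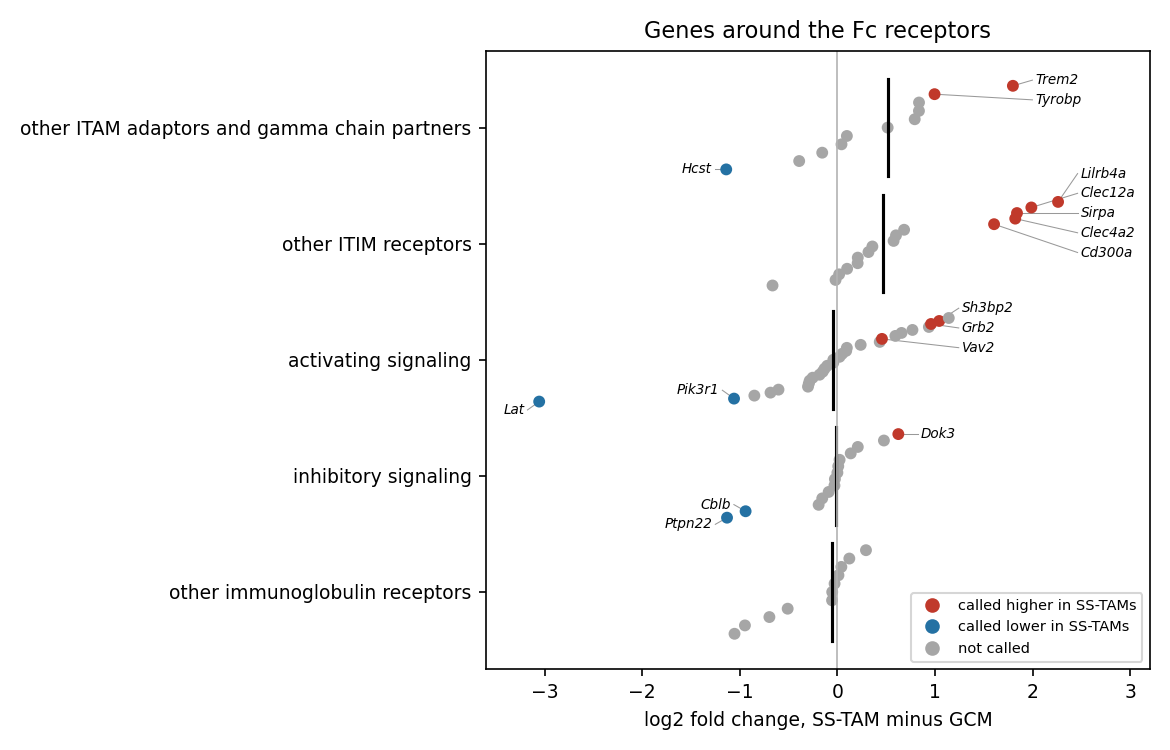
Change on the log2 scale, SS-TAM minus GCM, for genes measured in 5 lists around the Fc receptors, 1 point per gene (limma, 3 arrays per group), red where called higher in SS-TAMs, blue where called lower and gray where not called, with black bars for the list medians. The called ITIM receptors lie between 1.60 and 2.26, Lat lies at -3.06, and no other immunoglobulin receptor was called.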

How the data were processed

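Laser-captured SS-TAMs and GCMs were compared on 3 arrays each, every array from another mouse, and groups were taken from the labels. The authors deposited intensity values for 28944 probe sets on a linear scale with 1 decimal, from 2.4 to 2543.6. Their processing notes name RMA and limma. None of the sources used here gives their versions. The design assumed log2 values, so log2 was taken first. Array medians were 6.1 to 6.5, and the intensity exceeded by 1% of probe sets was 241.5 to 283.7 for SS-TAMs and 613.8 to 663.8 for GCMs. The number of arrays limits the precision, and no detection calls were used.

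Gene names came from the platform annotation, with symbols updated by gene ID from the RefSeq gene table (21698 of the 21789 naming 1 gene matched). Those naming several genes (1621) or unnamed here (5534) were left out, and for 999 genes with several probe sets the brightest stood for the gene. No probe set coordinates are printed, because no source used here names their build.

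SS-TAM and GCM arrays were set against each other in limma 3.58.1 under R 4.3.3 (two-sided moderated test after lmFit and eBayes, no covariate, Benjamini-Hochberg adjustment over 19938 genes, threshold 0.05), after the procedure was tested on simulated data. A fold divides geometric means, whereas each mean ± SD was taken over linear intensities. Alternatives were quantile normalization, median centring, scaling to core macrophage markers, leaving out dim genes (mean intensity under 10), the mean over probe sets, log2 of intensity plus 5, trended and robust variance, array weights, a replicate block and leaving out each array.

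The genes and lists were chosen with earlier results of these data known. Genes named were all members, up to 6 called genes of each pathway list (or its 2 brightest where none was called) and the 3 genes with the most similar profile to each member. Named outside this rule, after their values were seen, were Ighm, Fcer1a, Ms4a2, Syk, Inpp5d, Ptpn6, B2m, Cd36, Cd79a, Ms4a1, Pou2f2 and the other markers of single cell types.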

Additional observations from a re-analysis of the deposited data

How the results depend on the processing

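Of the 7 Fc receptor genes, 4 were called higher in SS-TAMs, and 2 (Fcgr4 and Fcer1g) with log2 of intensity plus 5, where Fcgr1 and Fcgr3 had limma adjusted p = 0.061 and 0.082. Leaving out 1 array gave 2 to 4 genes called higher and 0 called lower. The lowest counts came without GCM array 1, 2 or 3, when 271 to 348 of all genes were called higher and 399 to 499 lower, against 1028 and 946 with all arrays. Scaling to core macrophage markers turned Fcgr2b to -0.81 and Fcgr3 to -0.24 on the log2 scale and gave 3 genes higher and 3 lower (112 and 19635 of all genes). Without Cd68 and Csf1r in that scaling, an alternative added after the data were seen, Fcgr2b was at -0.73 and Fcgr3 at -0.16, with 3 genes higher and 3 lower (121 and 19590 of all genes). Neither scaling's calls are read, since both give all genes nearly 1 shared error. Leaving out dim genes removed Fcgr2b, Fcgr3, Fcer2a and Fcrla from the test, and 626 higher and 947 lower of 5366 were called. Median centring called 722 genes higher and 1195 lower.

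The labels link same-numbered arrays by the replicate number only. Their deviations from the group means correlated by 0.090, 0.087 and 0.019, and each SS-TAM array correlated best with the GCM array of its own number. Whether such arrays share more than the number was not tested. With the replicate number as a block, the replicate block fit called 4 Fc receptor genes higher, and 611 of all genes higher and 708 lower, and it ended the calls of Jchain, Grb2 and Dok3 and of the markers Cd8a, Flt3, Clec9a and Dpp4. Array weights ended those of Jchain, Grb2, Dok3, Hcst and Pik3r1 and of the markers Ms4a1, Pou2f2, Csf1r, Laptm5, Cd8a, Flt3, Ccr7 and Dpp4, and quantile normalization those of Hcst and Ccr7. Over the alternatives, 88 values of single Fc receptor genes kept their direction and side of the threshold, 11 lost a call, 5 gained one and 4 turned direction. These counts include both scalings to core macrophage markers, whose calls are not read. All gained calls except that of Fcgr2b, and all 4 turned directions, came from those scalings. The 88 also include the mean over probe sets, which repeats the log2 fold changes because no Fc receptor gene here has several probe sets. The 36 changes relative to Fcgr2b kept their direction, but most of them could not have turned. The mean over probe sets and the replicate block repeat the main value. For Fcgr1, Fcgr4 and Fcer1g the groups do not overlap, so leaving out an array cannot turn the sign. For Fcgr3, whose groups overlap, leaving out an array gave 0.41 to 0.74. The exact tests of these changes could not reach the threshold. Low intensities limit Fcer2a and the GCM levels of Fcgr1, Fcgr3 and Fcgr4, which lie at or below the array medians.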

Other observations

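FcRn pairs with beta 2-microglobulin and recycles IgG through endosomes. Although Fcgrt was not analysed here, 8 genes of its partners and of endosomal recycling were measured, of which 1 was higher and 0 were lower, with a median log2 fold change of 0.020. Without SS-TAM array 2, 3 were called higher, and without SS-TAM array 3, 1 was called lower. Tfrc, the transferrin receptor that travels the same recycling route, read 445.2, 332.9 and 368.8 on SS-TAM arrays 1, 2 and 3, against 10.6, 14.1 and 10.6 on GCM arrays 1, 2 and 3. The groups lay far apart, with a log2 fold change of 5.02 (limma adjusted p = 0.00026), and the call was kept without any 1 array. B2m averaged 659 ± 116 in SS-TAMs, against 896 ± 80.7 in GCMs (mean ± SD, n = 3 each), without a call (log2 fold change -0.45, limma adjusted p = 0.11).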
